A study of Danio rerio with 4 samples.

Results

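Flag-tagged Pou5f1 at late blastula was set against Flag-tagged Pou5f1 at the 512-cell stage in zebrafish embryos, position by position. The late blastula list held 7130 deposited intervals and the 512-cell list 7747. Intervals on the mitochondrial chromosome (2 and 0) and intervals overlapping the Input list (460 and 174) were dropped, and overlapping intervals of the late blastula list were merged. This left 6096 late blastula loci and 7573 512-cell loci, 13669 in all, from 14877 of the 22907 intervals that the 4 lists of the series hold. A locus was called kept when it overlapped a locus of the other stage by at least 1 bp. A late blastula locus without such an overlap was called gained, and a 512-cell locus without it lost. These are names for presence in the deposited lists.

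Both chromatin immunoprecipitation and sequencing (ChIP-seq) samples came from whole MZspg embryos injected with Pou5f1-Flag mRNA, and were precipitated with the anti-FLAG M2 antibody. MZspg stands for maternal-zygotic spiel ohne grenzen, a mutant that lacks functional Pou5f1 from both the mother and its own genome, so the tagged protein was the source of Pou5f1 at both stages. Per the labels of the late blastula sample, the mRNA was given to zygotes (1-cell stage) in an amount just enough to rescue the mutant. The late blastula sample was made from 20000000 pooled nuclei and the 512-cell sample from 2000000. Wild-type late blastula embryos gave a Sox2 ChIP and an Input chromatin sample, with 20000000 nuclei each. Each group held 1 sample, so no difference between stages has a replicate check and no p is given. Embryos were pooled, so all cell types of the embryo are mixed and no marker of cell type can be read from these lists.

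Pou5f1 of zebrafish, now named pou5f3, is a POU domain transcription factor related to mammalian Oct4. It is supplied as maternal mRNA and is known to be needed, with SoxB1 factors and Nanog, for the first wave of transcription from the embryo's own genome. That wave starts in the blastula, around the midblastula transition, before which the embryo lives largely on maternal products. POU and SoxB1 factors are known to bind adjoining sites on DNA together. The comparison asks which places already carried Pou5f1 in the early blastula, before or at the start of this transition, and which were listed only afterwards.

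Most loci of either stage were not found at the other. Of the late blastula loci, 777 of 6096 were kept (12.7%, exact binomial 95% interval 11.9 to 13.6), and of the 512-cell loci, 773 of 7573 (10.2%, 9.53 to 10.9). There were thus 5319 gained and 6800 lost loci. At a false discovery rate of at most 1% the kept shares were 8.61% at late blastula and 23.0% at 512 cells, so which stage had the higher share turned, and at 0.1% they were 1.91% and 31.6%. The late blastula list covers the genome 2 times in file order, in passes of 1217 and 5913 intervals, and with the first pass alone the kept shares were 19.7% and 2.51%. At 8 late blastula loci there were 2 512-cell loci, and at 12 512-cell loci there were 2 late blastula loci. Of the lost loci, 2 lay on a late blastula interval that had been dropped for Input, and of the gained loci 0 lay on a dropped 512-cell interval. The intervals cover counting error over loci only, not variation between embryos. Library totals were not analysed here, so read counts are given side by side for the stages and are not scaled to each other.

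Kept loci were mostly well aligned. The centres of the 777 kept pairs lay a median of 65 bp apart, and 527 (67.8%) were within 100 bp. Their median overlap was 272 bp. Kept pairs overlap by rule, which limits how far apart their centres can lie. These values are therefore not independent of the naming. Near the threshold, 25 pairs overlapped by up to 50 bp, and 24 gained loci ended within 50 bp of a 512-cell locus. The smallest overlap was 1 bp, at chrac1 and gatad2b (34 reads at late blastula and 59 at 512 cells), and the next 5 bp, at lancl2 and napga (29 and 45 reads). Just outside, gaps of 6 and 7 bp lay at zgc:172136 and zgc:171482 (61 and 48 reads) and at thbs3b and mtx1b (71 and 51 reads). The 512-cell list names no genome build. The late blastula list is in Zv9, and 732 of the kept pairs (94.2%) had at least 1 flanking gene in common and 451 (58.0%) both, so the same build was assumed. Coordinates are given in Zv9 and counted from 1. Exon and intron annotation of the loci was not analysed here.

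Loci with more reads were kept more often at both stages. Each list was put into 10 bins of equal size by the authors' read count per interval. Of the strongest 10% of late blastula loci (92 to 1016 reads), 27.9% were kept (24.3 to 31.6), and of the weakest (8 to 24 reads) 4.93% (3.35 to 6.96). Of the strongest 10% of 512-cell loci (97 to 566 reads), 44.2% were kept (40.6 to 47.8), and of the weakest (23 to 39 reads) 1.45% (0.728 to 2.59). For a false discovery rate of at most 0.1%, the share of the strongest 10% was 5.20% at late blastula (9 of 173 loci). At 512 cells it was 50.0%, from only 5 of 10 loci (18.7 to 81.3). With the first pass alone the shares were 37.1% and 14.6%. Kept late blastula loci had a median of 56 reads and gained loci 38. Kept 512-cell loci had 88 and lost loci 50. With tied pairs shared evenly between the sides, a kept locus had the higher count in 68.0% of all pairs of a kept with a gained locus. Against lost loci it was 83.3% of all pairs. Kept loci were also longer, with a median of 360 bp against 283 bp for gained and 331 bp against 278 bp for lost loci. A longer locus meets the 1 bp overlap more easily, so length is not independent of the naming rule.

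**Figure D1:**
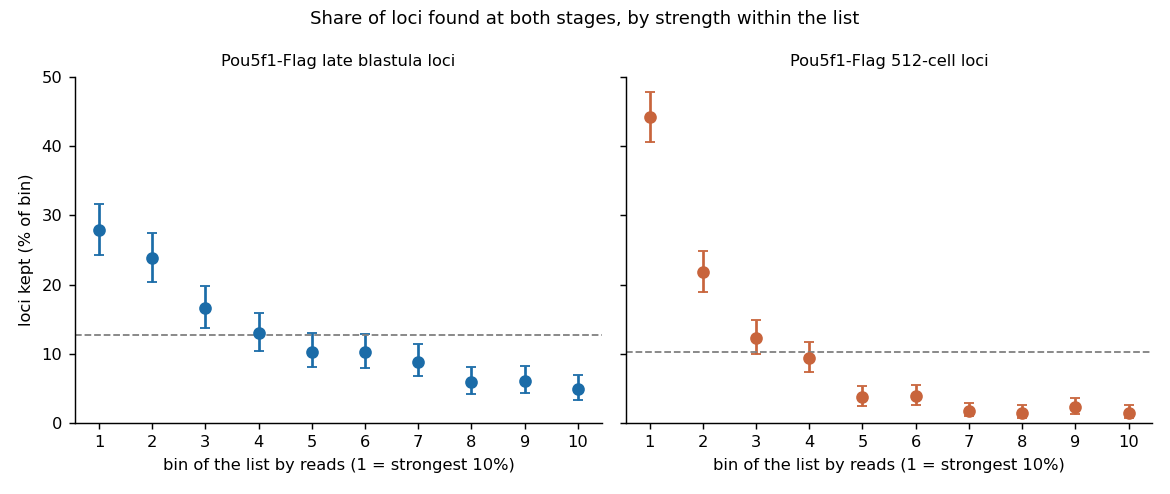
Share of loci kept (vertical axis, percent) in 10 bins of equal size by read count (horizontal axis, bin 1 strongest), for late blastula loci (left) and 512-cell loci (right). Points are shares, bars exact binomial 95% intervals and the dashed line the share over the whole list (12.7% left, 10.2% right). The strongest bin is the highest on both sides, at 27.9% left and 44.2% right, and bin 10 is at 4.93% and 1.45%.

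At the kept loci the order of strength at late blastula was only loosely that of the 512-cell stage. Spearman's rho between the reads of the 777 kept pairs was 0.36, and Pearson's r on log2 reads 0.36, as a description over loci that share their 2 libraries. For pairs with centres within 100 bp the rho was 0.42 where a Sox2 interval was present (299 pairs) and 0.38 where none was (228 pairs). Both loci lay above their list's median in 522 pairs (67.2%) and both at or below it in 36. The 512-cell locus alone lay above its median in 180 pairs and the late blastula locus alone in 39. In 119 pairs both belonged to the strongest 10% of their list.

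**Figure D2:**
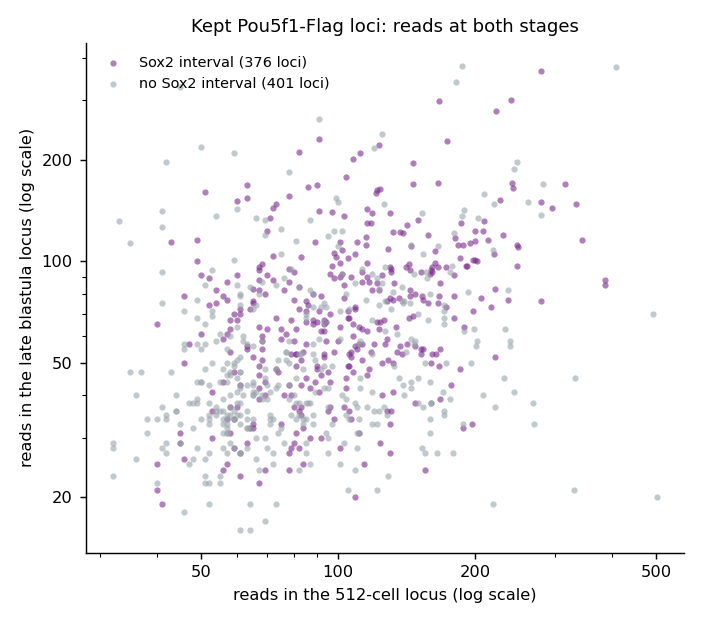
Reads in the late blastula locus (vertical axis, log scale) against reads in the overlapping 512-cell locus (horizontal axis, log scale) for the 777 kept late blastula loci, 1 point each. Loci with a late blastula Sox2 interval (376) are purple and the other 401 grey. The cloud is broad, with rho 0.36, and the purple points have the higher medians, at 69.5 against 44 reads at late blastula and 103 against 78 at 512 cells.

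The kept loci that stood highest in both lists were beside genes of general cell function as well as early regulators. The 10 whose worse rank was best began with arpc2, a subunit of the Arp2/3 actin nucleator, and mettl5 on chromosome 9, from 49096604 to 49097719. It held 377 reads (rank 25) in the late blastula list and 408 (rank 8) in the 512-cell list. The locus between romo1 and mych, a Myc family gene, followed with 368 reads (rank 27) at late blastula and 279 (rank 24) at 512 cells. The locus beside midn had 301 reads (rank 35) and 240 (rank 39), in the same order of stages. That beside ctnnb1, which encodes beta-catenin, had 280 (rank 41) and 223 (rank 55). The 512-cell list named cmtm8b in place of ctnnb1, and atp5f1d in place of midn. These 4 loci were thus within the first 55 ranks of both lists.

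The other 6 of these 10 lay lower in at least 1 list. The locus at chrac1 and gatad2b, a subunit gene of the NuRD chromatin complex (chromosome 19, 43150260 to 43151186), had 197 reads at late blastula and 248 at 512 cells. The locus at cry2, a cryptochrome gene, and gnb5a had 380 and 187 reads. At pnn and jkamp (chromosome 17, 14007642 to 14008649) there were 188 and 244 reads, and at bzw1a and gtpbp1l (chromosome 22, 14970159 to 14971941) 340 and 182. Their 512-cell loci ran from 14006961 to 14007945 at pnn and from 14969534 to 14970194 at bzw1a. Each thus overlapped only the start of the late blastula locus. The loci at sox19a, a SoxB1 gene (171 and 241 reads), and between vox and vent, ventral homeobox repressor genes (169 and 316 reads), completed the 10. A Sox2 interval was present at 5 of them, those at mych, midn, ctnnb1, sox19a and vox, and absent at the other 5.

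Some kept loci stood far apart in the 2 lists. With the higher place at late blastula, the locus at vim, an intermediate filament gene, and neurod6a, a neuronal bHLH gene, had 132 reads (rank 237 of 6096) at late blastula and 33 (rank 7360 of 7573) at 512 cells. Next were ube2e3 and cerkl (113 and 35 reads), NM_001114729 and phox2bb, a homeobox gene of autonomic neurons (141 and 41 reads), glcea and hal (197 and 42 reads) and arl14 and ppm1la (126 and 41 reads). None of these 5 had a Sox2 interval. At the phox2bb locus the 512-cell list named tcirg1b and dicp2.1 instead. With the lower place at late blastula, the locus at mrpl38 and fbxl15 had 20 reads (rank 5841) at late blastula and 503 (rank 2) at 512 cells. The others were zgc:174904 and gsk3aa (19 and 219 reads), cdk5rap1 and gdf11, a TGF-beta family ligand gene (21 and 330 reads), mcm10 and nudt5 (21 and 122 reads), and ctps1b and cited4b (20 and 109 reads), of which the last had a Sox2 interval. Of the 58 pairs in the strongest 10% at 512 cells but in the lower ranks of the late blastula list (50% of it), 17 (29.3%) had a Sox2 interval. Of the 119 pairs in the strongest 10% of both, 86 had it (72.3%, 63.3 to 80.1). Centres lay a median of 103 bp apart in those 58 pairs and 66 bp apart in those 119. In the 12 pairs of the strongest 10% at late blastula but the lower 50% at 512 cells it was 198 bp. Whether the reads of such a pair come from 1 site was not tested.

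Late blastula Sox2 was present at far more kept than lost loci, a readout that took no part in naming the classes. Of all late blastula loci 27.3% had a Sox2 interval, and of all 512-cell loci 7.32%. Among kept late blastula loci it was 376 of 777 (48.4%, 44.8 to 52.0), against 1289 of 5319 gained loci (24.2%, 23.1 to 25.4). Among kept 512-cell loci it was 374 of 773 (48.4%), against 180 of 6800 lost loci (2.65%, 2.28 to 3.06). At a false discovery rate of at most 1%, Sox2 was at 61.3% of kept late blastula, 32.7% of gained and 7.26% of lost loci. For 0.1% it was at 60.6% of kept (20 of 33, 42.1 to 77.1) and 43.7% of gained loci (41.3 to 46.1). The intervals of kept and gained loci overlapped there. Of lost loci 8.96% had it. Sox2 was measured at late blastula, so the lost loci were held against Sox2 of a later stage than their own. By rule, kept 512-cell loci overlap a locus of that later stage and lost ones do not. The naming is therefore not independent of the stage at which Sox2 was measured. Where Sox2 was present, its median count was 168 reads at kept and 99 at gained late blastula loci, and 166 at kept and 73 at lost 512-cell loci.

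Kept loci had the higher Sox2 share than lost loci in bins 1 to 9 of the 512-cell list, and in bin 10 it was 0 of 11 kept and 3 of 746 lost loci. Among the strongest 10% of 512-cell loci, 201 of 335 kept (60.0%, 54.5 to 65.3) and 46 of 423 lost loci (10.9%) had a Sox2 interval. Among the strongest 10% of late blastula loci it was 113 of 170 kept (66.5%, 58.8 to 73.5) and 183 of 440 gained loci (41.6%). In bins 5, 6 and 7 of the late blastula list the intervals of kept and gained loci overlapped, with 30.2%, 22.6% and 20.4% of kept and 28.2%, 19.5% and 22.3% of gained loci.

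**Figure D3:**
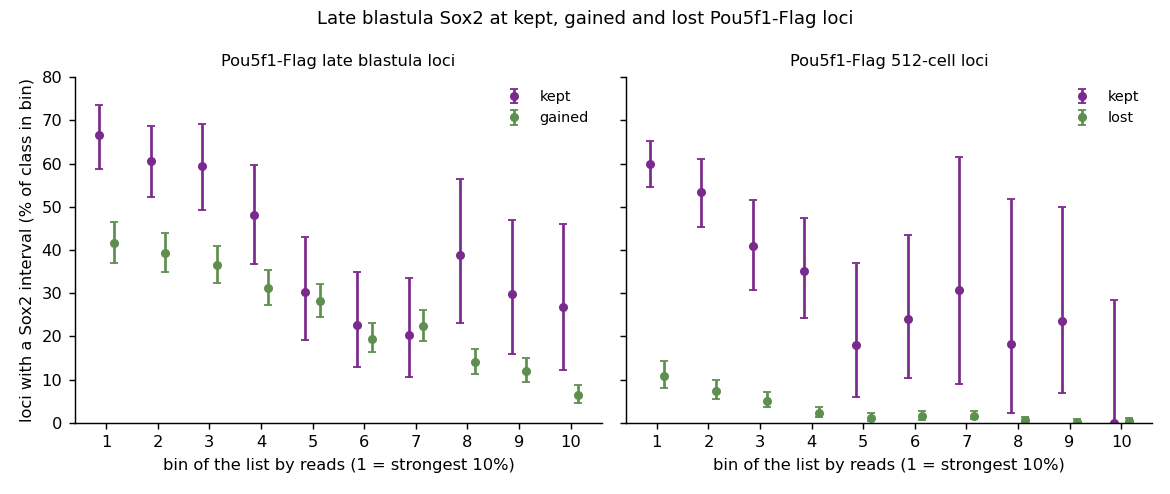
Share of loci with a late blastula Sox2 interval (vertical axis, percent of the class within the bin) in 10 bins by read count (horizontal axis, bin 1 strongest), for kept and gained late blastula loci (left) and kept and lost 512-cell loci (right). Bars are exact binomial 95% intervals. Kept loci lie above lost ones in bins 1 to 9 on the right, at 60.0% against 10.9% in bin 1, and on the left kept and gained loci come together in bins 5 to 7.

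Interval shape and the layout of the late blastula list moved with these shares. Of the strongest 10% of gained loci, 81 of 440 had as their strongest interval one of 500 to 510 bp, and 9 of these (11.1%) had Sox2. Among the remaining 359 it was 174 (48.5%), against 104 of 157 kept loci (66.2%) outside that width. Of the 13 kept loci of that width, 9 had Sox2 (69.2%). Among the strongest 10% not wider than 500 bp, Sox2 was at 86.2% of kept and 72.6% of gained loci, and among wider ones at 54.3% and 27.9%. The 512-cell list held the width of 500 to 510 bp too. In its strongest 10%, 39 of 423 lost loci had it, 3 of them (7.69%) with Sox2, against 11.2% of the other 384. Of 9 kept 512-cell loci of that width, 6 had Sox2 (66.7%). Of the 570 late blastula loci found in both passes of that list, 165 were kept (28.9%, 25.3 to 32.9) and 402 had Sox2 (70.5%). Of the 397 loci in the first pass only, 28 were kept (7.05%) and 71 had Sox2 (17.9%), and of the 5129 in the second only, 584 (11.4%) and 1192 (23.2%). Loci in both passes had a median of 77.5 reads, against 30 and 38. Within the strongest 10%, 37.7% of the loci in both passes and 23.1% of those in a single pass were kept. The parts of width and pass in the Sox2 shares were not tested beyond these values.

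The strongest gained loci lay between dusp14 and hnf1ba, a hepatocyte and hindbrain homeobox gene (1016 reads), between trim23 and lpar1, a lysophosphatidic acid receptor gene (964), and between klf2a, a Krüppel-like factor gene, and stil (856). Those at slc49a3 (826 reads), mstnb, a myostatin gene (776), hrh2a (752), thbs4a (689), dnal4b (673), cyp51, a sterol synthesis gene (598), and egfl7 (597) made up the 10. Only the klf2a and egfl7 loci had a Sox2 interval, with 44 and 28 Sox2 reads. The nearest 512-cell locus was 2.21 kb away at klf2a (73 reads), 6.73 kb away at dusp14 (61 reads) and 31.4 to 407 kb away at the other 8. At late blastula these 10 loci were therefore strong with no overlapping early locus, and 6 of them were 505 to 509 bp long.

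The strongest lost locus was between cd226 and cbln2b (566 reads at 512 cells, rank 1, 502 bp long, 510 kb from the nearest late blastula locus). Those that followed lay beside mir135c-1 (449 reads), hnrnpa0b, an RNA-binding protein gene (446), irx1a, an Iroquois homeobox gene, and sim1a (435), vrtn (421) and kdm8 (357). The remaining 4 were at abhd13 and pdzk1 (332 reads, chromosome 9, 5774586 to 5775168), si:ch73-103b9.2 and gse1b (293, chromosome 18, 30025018 to 30025561), gper1 and shisa9b (291, chromosome 3, 45815415 to 45816419) and zeb2b, a zinc finger repressor gene, and plxna1b (283, chromosome 6, 1124736 to 1125595). None of the 10 had a Sox2 interval. Late blastula loci lay 3.90 kb from the hnrnpa0b locus (94 reads), 5.64 kb from the zeb2b locus (152 reads) and 9.25 kb from the gper1 locus (163 reads). The authors' false discovery rate at these loci spanned 7.45e-28% at cd226 to 0.502% at gper1 and zeb2b.

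Gained and lost loci were not, as a rule, near neighbours of a locus of the other stage. The median distance from the centre of a gained locus to the nearest 512-cell centre was 49.9 kb, and 1065 of 5319 lay within 10 kb. From a lost locus to the nearest late blastula centre it was 82.1 kb, with 13.6% within 10 kb. Lost loci with a Sox2 interval were closer, at a median of 28.6 kb with 35.6% within 10 kb (180 loci), against 82.9 kb and 13.0% for lost loci without Sox2 (6620 loci). Gained loci with Sox2 had a median of 40.3 kb and those without 54.0 kb. Distances depend on the length of the list searched, 7573 loci for gained and 6096 for lost ones.

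The flanking genes of the 2 lists were compared next. A gene was counted when a list named it on either side of a locus. The late blastula loci named 5235 genes and the 512-cell loci 7010, of which 3470 were in both, that is 66.3% of the late blastula and 49.5% of the 512-cell genes. Of all genes named by any list, the 512-cell loci named 72.4% and the late blastula loci 54.1%. The 66.3% thus lay below the 72.4%, and the 49.5% below the 54.1%. At a false discovery rate of at most 1% the shared genes were 29.5% of the late blastula and 53.4% of the 512-cell genes, so the order of the stages turned. Of the 9679 genes that any of the 4 deposited lists names, 1492 (15.4%) were beside a kept locus and 2295 (23.7%) were beside loci of both stages without a kept one. A further 1649 (17.0%) were beside gained loci alone and 3339 (34.5%) beside lost loci alone. The lists do not name genes alike: of the genes named at 512 cells, 2558 (36.5%) are named by no late blastula list of any kind. Among the 7102 genes that a late blastula list names, 18.6% were beside a kept locus, 32.3% beside both stages without one, 23.2% at late blastula alone and 13.4% at 512 cells alone.

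This naming shows in the genes with the most kept loci. The late blastula list put suz12a and rab11fip4a beside 10 kept loci each, and suz12a's spread over 4.64 Mb of chromosome 3. It put met and zgc:113984 beside 10 over 14.4 Mb of chromosome 25. The 512-cell list named 12 genes at the suz12a loci and 18 at the met loci, suz12a, met and zgc:113984 not among them. With 11 in all, rab11fip4a had the most, and fsip1, named on 2 chromosomes, had 6. Among the suz12a loci is a tight cluster that the 512-cell list puts between grifin and lfng, which encodes a glycosyltransferase that modifies Notch (chromosome 3, 41897819 to 41904751, 6.93 kb). It held 5 late blastula loci of 53 to 116 reads over 4 512-cell loci of 106 to 386 reads, and each had a Sox2 interval. At met the kept loci had 18 to 148 reads at late blastula and 46 to 236 at 512 cells, with Sox2 at 2 of 10.

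Loci of both stages could also lie beside the same gene at different positions. Genes with both gained and lost loci and no kept one were led by syndig1l (strongest gained locus 192 reads, strongest lost locus 421), rab40c and xylt1 (188 and 191 reads each), shisa9b (163 and 291) and paxbp1 (437 and 160). At syndig1l there were 5 gained and 3 lost loci.

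Genes of early patterning were next read by role. A gene counted as beside a kept locus when either list named it there, so the other list may name different genes. Over 9 lists of patterning genes, 76 of 193 measured genes (39.4%, 32.4 to 46.7) were beside a kept locus, against 15.4% of all named genes. Both shares were lower with fewer loci, at 26.9% of patterning and 6.56% of all named genes for a false discovery rate of at most 1%, and 7.25% and 0.868% for 0.1%. With the first pass of the late blastula list alone they were 19.7% and 4.39%. In 3 comparison lists (germ plasm, ribosomal protein and differentiated-cell genes) it was 5 of 47 (10.6%, 3.55 to 23.1). A gene beside more loci has more chances of a kept one, and these shares are not adjusted for that. Counted gene by gene, the 193 patterning genes had 122 kept, 432 gained and 360 lost loci. The 47 comparison genes had 9, 47 and 58. Of the 193 patterning genes 61 had loci of both stages without a kept one, 18 were named at late blastula alone, 29 at 512 cells alone and 9 at neither. Over all named genes, 23.7% had loci of both stages without a kept one, 17.0% were at late blastula alone and 34.5% at 512 cells alone. Kept loci lay beside a patterning gene in 117 of 777 cases (exact 95% interval 12.6 to 17.8%), gained loci in 428 (8.05%) and lost loci in 358 (5.26%). Kept loci were matched by the gene names of both lists, gained and lost loci by those of their own list alone. A kept locus could thus match more names, and these shares are not strictly alike. Of those 117 kept loci 96 had Sox2 (82.1%, 73.9 to 88.5), against 280 of the other 660 (42.4%). Sox2 was likewise at more of the gained loci beside patterning genes (47.7%) than of the other gained loci (22.2%), and at more of such lost loci (7.26%) than of the others (2.39%). Kept loci beside patterning genes had a median of 82 late blastula reads and the other kept loci 53. The lists were drawn up with earlier results of these data known, and neighbouring genes can count the same locus. A late blastula list of any kind names 181 of the 193 patterning genes. A gene given below as named at 512 cells alone may thus be one that no late blastula list names.

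**Figure D4:**
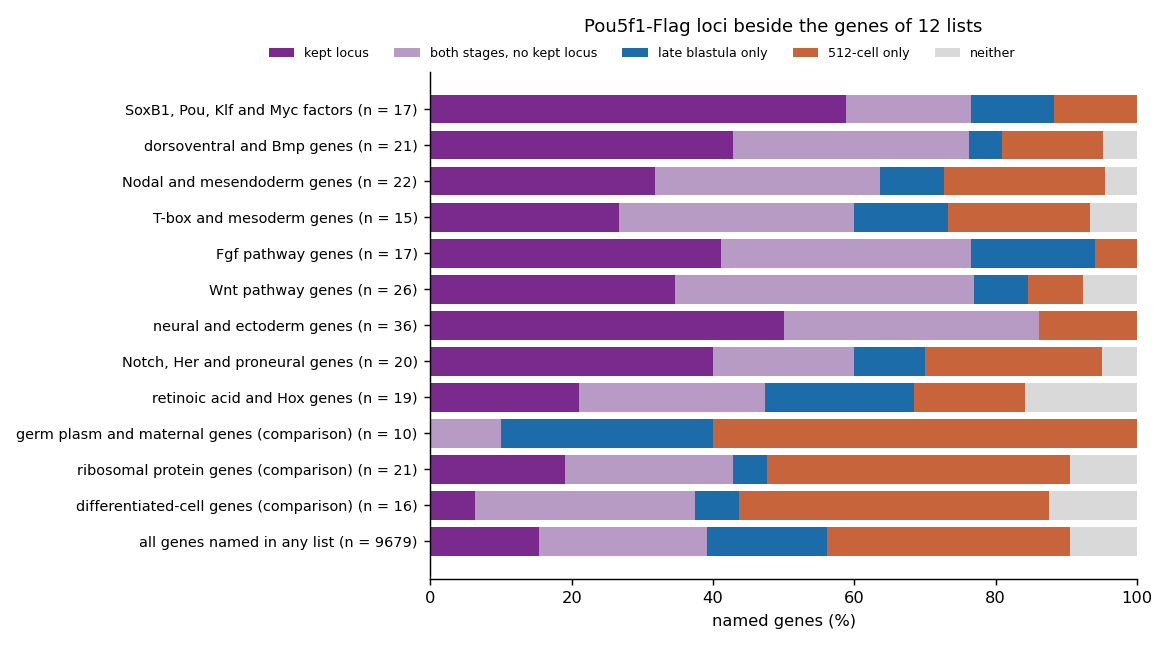
Genes of 12 lists and all named genes (rows, with the number measured), split by their Pou5f1-Flag loci (horizontal axis, percent of genes): kept locus, loci of both stages with no kept one, late blastula alone, 512 cells alone, or neither. The kept share is 58.8% for SoxB1, Pou, Klf and Myc factors, 0% for germ plasm and maternal genes and 15.4% for all named genes.

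The factors that act with Pou5f1 or share its role came first. Of 17 SoxB1, Pou, Klf and Myc factor genes, 10 (58.8%, 32.9 to 81.6) had a kept locus. Beside mych the list held 2 kept loci, the one at 368 and 279 reads and a second on chromosome 6, from 50408913 to 50409267, with 59 reads at late blastula and 75 at 512 cells. Beside sox19a there were also 2, at 171 and 241 reads (chromosome 5, 25866501 to 25867005) and at 51 and 113 reads. At mycn, a Myc gene of proliferating neural cells, the kept locus had 136 and 187 reads and no Sox2. At pou5f3, the gene of the precipitated factor itself, 114 reads were counted at late blastula and 101 in the 512-cell locus, with Sox2 present (chromosome 21, 11894852 to 11895412). The SoxB1 genes sox19b (strongest gained locus 82 reads) and sox1a (55 reads) were named at late blastula alone, and klf4 (56 reads) and myca (51 reads) at 512 cells alone.

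In the dorsoventral and Bmp list 9 of 21 genes (42.9%, 21.8 to 66.0) had a kept locus. The 5 kept loci beside vox lay within 84.9 kb of chromosome 13, and all had Sox2. Their late blastula reads were 108, 113, 97, 87 and 169 in order of position, and their 512-cell reads 102, 195, 192, 78 and 316. The last of the 5 was thus the strongest at both stages, and its neighbour, the fourth, the weakest at both. At id1, a helix-loop-helix inhibitor induced by Bmp, 4 kept loci over 132 kb had 57, 104, 86 and 130 reads at late blastula and 47, 72, 133 and 186 at 512 cells. The locus nearest the end of this stretch was again the highest in both lists. At bmper, a Bmp-binding protein gene, the kept locus had 102 and 185 reads. The ligand gene bmp7a (148 reads) was named at late blastula alone, and the antagonist gene nog2 (71 reads) and bambib (57 reads) at 512 cells alone.

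Of 22 Nodal and mesendoderm genes, 7 (31.8%, 13.9 to 54.9) had a kept locus, and the best of each had Sox2. That interval includes the 15.4% of all named genes. The highest was at foxh1, the Smad partner of Nodal signalling, with 298 reads at late blastula and 167 at 512 cells. The Nodal co-receptor gene tdgf1 had 128 and 142 reads, the Nodal antagonist gene lft2 96 and 166, and gsc, an organiser homeobox gene, 77 and 132. The endoderm genes sox32 (126 reads, with Sox2) and gata5 (97 reads) were named at 512 cells alone, and smad3b (45 reads) and aplnrb (39 reads) at late blastula alone. In the T-box and mesoderm list 4 of 15 genes (26.7%, 7.79 to 55.1) had a kept locus, and this interval includes 15.4% too. At tbx16 its reads were 143 at late blastula and 116 at 512 cells, at tbxta, the Brachyury gene, 101 and 198, and at eve1 77 and 80. Beside noto, a notochord homeobox gene, there were 3, with 96, 51 and 79 reads at late blastula and 130, 129 and 167 at 512 cells. At this tbxta locus the 512-cell list named zdhhc18b and marcksl1b instead. The segmentation clock gene her7 (104 reads) was named at late blastula alone and the posterior homeobox gene cdx1a (139 reads) at 512 cells alone.

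Of 17 Fgf pathway genes, 7 (41.2%, 18.4 to 67.1) had a kept locus, and the best of each had Sox2. The Ets gene etv4 stood first with 148 reads at late blastula and 334 at 512 cells. The feedback inhibitor genes spry1 (110 and 249 reads) and dusp6 (96 and 161 reads) and the phosphatase gene dusp1 (98 and 143 reads) followed. At the spry1 locus the late blastula list named cops6 and cyyr1. Named at late blastula alone were etv5b (152 reads) and fgf24 (83 reads), and at 512 cells alone the receptor gene fgfr4 (70 reads). Of 26 Wnt pathway genes, 9 (34.6%, 17.2 to 55.7) had a kept locus, led by ctnnb1. The Groucho co-repressor gene tle3a had 3 kept loci, with 169, 161 and 48 reads at late blastula and 146, 51 and 185 at 512 cells. The order of the 3 was therefore not the same at the 2 stages. The receptor gene fzd8a had 132 and 209 reads, and the better-ranked locus of the Wnt target sp5l 116 and 343. Its other kept locus had 163 and 122 reads. The repressor gene tcf7l1b (167 reads) and lef1 (62 reads) were named at late blastula alone, and wnt1 (75 reads) and axin1 (57 reads) at 512 cells alone.

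Of 36 neural and ectoderm genes, 18 (50.0%, 32.9 to 67.1) had a kept locus and 0 were named at late blastula alone. Over all named genes these shares were 15.4% and 17.0%. At the head homeobox gene otx2a the better of 2 kept loci, on chromosome 1 from 51431595 to 51432150, had 165 reads at late blastula and 242 at 512 cells. The zinc finger gene zic2b had 171 and 166 reads, the LIM homeobox gene lhx5 115 and 200, and sox11a 112 and 184. At this otx2a locus the 512-cell list named zgc:154142 and mdh1aa, and at the zic2b locus the late blastula list named pcca and marchf4a. At 512 cells alone were zic5 (104 reads) and foxg1a (82 reads). In the Notch, Her and proneural list 8 of 20 genes (40.0%, 19.1 to 63.9) had a kept locus. The gene lfng came first, then her3 (97 and 191 reads), the ligand gene dlc (82 and 123 reads) and her11 (71 and 198 reads). Among retinoic acid and Hox genes it was 4 of 19 (21.1%, 6.05 to 45.6), an interval that includes the 15.4% of all named genes. These were rarab (134 and 71 reads) and raraa (79 and 61 reads), which encode retinoic acid receptors, nr2f1a (72 and 64 reads) and hoxb1a (19 and 52 reads). The repressor gene her8a (124 reads) and the receptor gene notch3 (99 reads) were named at late blastula alone, and ascl1b (111 reads) and notch1a (98 reads) at 512 cells alone. Of the retinoic acid and Hox list, the Hox cofactor gene pbx4 (201 reads) and aldh1a2, which encodes an enzyme of retinoic acid synthesis (58 reads), were named at late blastula alone, and hoxa1a (69 reads) and hoxb4a (61 reads) at 512 cells alone.

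**Figure D5:**
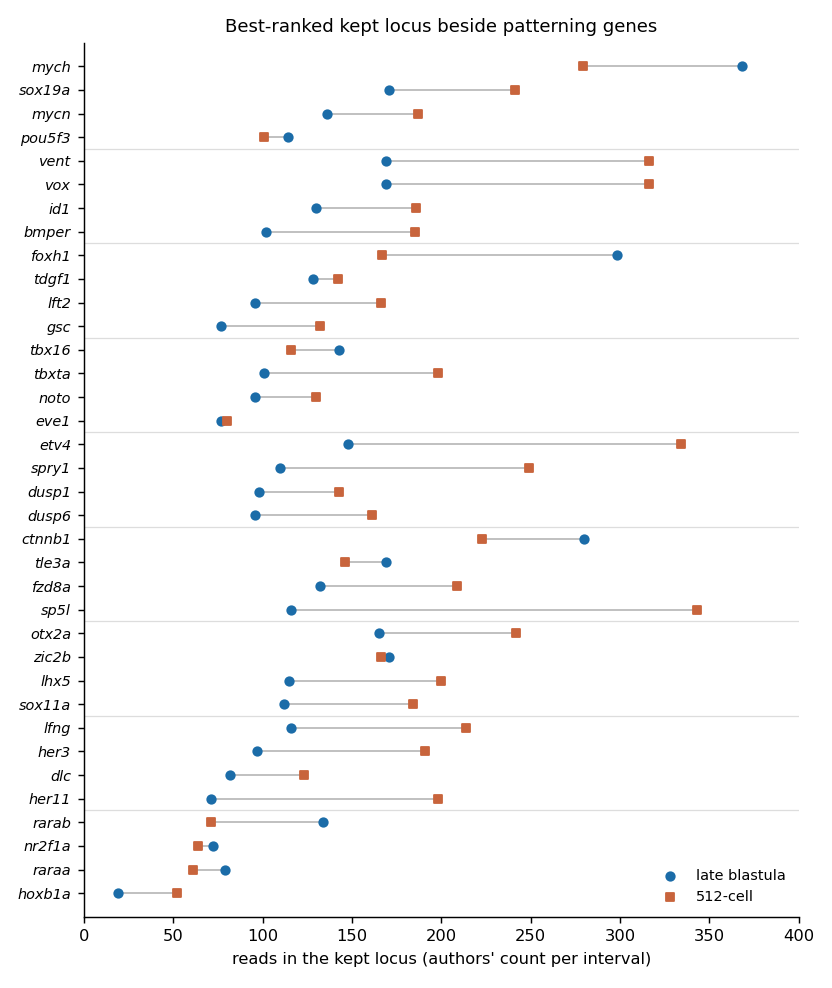
Reads (horizontal axis, authors' count per interval) in the best-ranked kept locus beside up to 4 genes of each patterning list (rows), at late blastula (circles) and at 512 cells (squares). Lines join the 2 values of a locus, vox and vent share 1 locus, and the stages are not scaled to each other. The widest spreads are at sp5l (116 and 343 reads) and etv4 (148 and 334 reads).

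In the comparison lists 0 of 10 germ plasm and maternal genes had a kept locus, which allows up to 30.8% (exact interval), 4 of 21 ribosomal protein genes (19.0%, 5.45 to 41.9) and 1 of 16 differentiated-cell genes (6.25%). The best kept locus of the ribosomal protein gene rps27a had 92 reads at late blastula and 147 at 512 cells. It had no Sox2 interval, and the late blastula list put 4 kept loci over 618 kb beside rps27a that the 512-cell list names by other genes. Other kept loci of these lists were at rpsa (57 and 142 reads, with Sox2), rpl18 (28 and 63 reads) and plp1a, a myelin gene (117 and 181 reads, with Sox2). The maternal genes ybx1 (125 reads) and cth1 (63 reads) were named at late blastula alone, and org (72 reads) and zar1 (64 reads) at 512 cells alone.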

How the data were processed

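ChIP-seq interval lists of 4 zebrafish samples, 1 per group, were used as deposited. The deposited read counts per interval are raw whole numbers, split by strand, per the file headers. The headers also give the authors' Wilcoxon p-value and their FDR as a percent. The deposited normalized difference was recomputed as a fraction, the gap between the strands over all reads, and matched in all 4 lists. Every such value was used only within its list. The submitters' processing notes name CASAVA with no version. For aligner, peak caller and thresholds, nothing is given in the sources used here. The identifiers of the late blastula Pou5f1-Flag list read P1+P2, and the design text speaks of technical duplicates of Pou5f1 without naming the stage.

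Interval length in the files is end minus start, so starts were read as counted from 0 and moved to count from 1. A merged locus took the highest count of its intervals. In a kept pair the strongest overlapping 512-cell locus was taken. Percentile ranks are within a list. Flanking genes were named from RefSeq accessions through a table of assembly GRCz12tu, used for names alone, and 4.73% of the 8775 genes of both lists stayed as accessions. Shares have exact (Clopper-Pearson) 95% intervals. Total counts per library, and so depth, are unknown, and reads inside listed intervals (841679 at late blastula and 564835 at 512 cells) are not depths. Overlap and merging were tested on simulated intervals. Python 3.11.15, pandas 2.3.3, NumPy 2.4.6, SciPy 1.17.1 and matplotlib 3.10.9 were used.

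The members, the 12 gene lists and the alternatives were chosen with earlier results of these data known. Text names the 10 kept loci whose worse percentile rank is best, the 10 gained and 10 lost loci with the most reads, the kept loci with the 5 largest rank differences each way, the 5 genes with the most kept loci, the 5 with gained and lost loci but no kept one whose weaker count is highest, and per gene list up to 4 genes with a kept locus and up to 2 named at each stage alone. Other loci named were chosen after their values were seen. A few items that these rules select are not reported here.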

Additional observations from a re-analysis of the deposited data

How the results depend on the processing

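Of 103 values recomputed under the alternatives, 59 were counted as within the 95% interval of the reported value and 44 as moved out of it. The values of rho among them have no such interval. Of these, 0.47 with centres within 100 bp was counted as moved and 0.36 with summed reads as not moved. Dropping no Input overlap, leaving out late blastula intervals of 500 to 510 bp or leaving out chromosome 4 moved no share beyond its reported interval. Intervals of that width stayed in the 512-cell list, so its own part in these shares was not tested. With centres within 100 bp, 8.66% of late blastula and 6.97% of 512-cell loci were kept (strongest 10%: 18.7% and 30.5%), Sox2 was at 52.3% of kept and 20.7% of gained loci, and rho was 0.47. Here and in the next setting, Sox2 intervals were called by the same changed rule instead of the 1 bp overlap. With an overlap of 50% of the shorter interval, 11.4% and 9.08% were kept, with Sox2 at 52.0% of kept late blastula loci. Without merging, 14.1% of late blastula intervals were kept, with Sox2 at 54.6% of kept and 27.1% of gained. Summed reads put 32.3% of the strongest late blastula 10% among the kept.

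Stricter false discovery rates moved the stages unequally. They left 3509 late blastula and 1289 512-cell loci at 1%, and 1730 and 98 at 0.1%. Whether these numbers account for the shift was not tested. At 1%, 8.61% of late blastula and 23.0% of 512-cell loci were kept (strongest 10%: 19.1% and 53.5%), Sox2 was at 61.3% of kept, 32.7% of gained and 7.26% of lost loci, 29.5% of late blastula and 53.4% of 512-cell genes were shared, and 26.9% of patterning genes had a kept locus. At 0.1% these were 1.91% and 31.6% (5.20% and 50.0%), 60.6%, 43.7% and 8.96%, 4.19% of late blastula genes, and 7.25%. The 50.0% stands for 5 of 10 loci and the 60.6% for 20 of 33.

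The passes of the late blastula list were separated after seeing the data. With the first alone, 19.7% of late blastula and 2.51% of 512-cell loci were kept (strongest 10%: 37.1% and 14.6%), Sox2 was at 79.6% of kept, 41.3% of gained and 5.44% of lost loci, 74.8% and 15.3% of genes were shared, and 19.7% of patterning genes had a kept locus. With the second alone, 47.9% of 512-cell genes were shared, and the other 9 shares stayed within their intervals. The causes of the shifts between settings were not tested. No paired analysis was possible because each group held 1 sample. Without replicates and library totals, a locus absent from a list cannot be told apart from one too weak to be listed at that depth.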

Other observations

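The 10 strongest gained loci that had a Sox2 interval were chosen after their values were seen. After klf2a and egfl7 came dhh, a Hedgehog ligand gene, and acvr1ba, an activin receptor gene (265 late blastula Pou5f1-Flag reads and 132 Sox2 reads, chromosome 23, 28056839 to 28057395). Next were ccnd1, which encodes cyclin D1 (247 and 299 reads, chromosome 7, 54543456 to 54544206), grk3 (229 and 192 reads) and yap1, the co-activator of the Hippo pathway (223 and 219 reads, chromosome 18, 35643495 to 35644234). Then followed raraa (216 and 376 reads), pbx4, a partner of Hox proteins (201 and 162 reads), and shha, the Sonic hedgehog ligand gene (200 and 397 reads, chromosome 7, 43054147 to 43054812). The 10th lay beside alcamb (195 and 608 reads). A 512-cell locus lay within 5 kb of those at dhh (4.15 kb, 67 reads), grk3 (3.16 kb, 51 reads), yap1 (3.86 kb, 41 reads) and alcamb (3.32 kb, 54 reads).

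Lost loci with a Sox2 interval were few, 180 of 6800, and the strongest of them, also chosen afterwards, lay beside klf17, a Krüppel-like factor gene (244 reads at 512 cells and 133 Sox2 reads, chromosome 2, 33042844 to 33043673). Others were at ssx2ipb (220 and 323 reads), pou6f1, a POU factor gene (206 and 524 reads), fgf8a, an Fgf ligand gene (177 and 449 reads, chromosome 13, 28683152 to 28683657), grnas (174 and 263 reads) and nkx2.1 and pax9 (171 and 75 reads). Those at wnt11f2, a Wnt ligand gene (166 and 160 reads), atoh8 (162 and 107 reads) and tma16 (161 and 73 reads) were also among the strongest 10. A late blastula locus lay within 5 kb of 5 of these, at tma16 (0.130 kb, 49 reads), grnas (1.70 kb, 31 reads), pou6f1 (2.14 kb, 119 reads), wnt11f2 (3.03 kb, 56 reads) and ssx2ipb (3.05 kb, 47 reads).

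The extremes of the kept shares by chromosome were read beside the shares over the whole lists, 12.7% at late blastula and 10.2% at 512 cells. On chromosome 25, 38 of 199 late blastula loci (19.1%, 13.9 to 25.3) and 37 of 225 512-cell loci (16.4%, 11.9 to 21.9) were kept, the highest share in both lists. The lowest were chromosome 4 for late blastula loci (22 of 315, 6.98%, 4.43 to 10.4) and chromosome 17 for 512-cell loci (23 of 320, 7.19%, 4.61 to 10.6). The interval of chromosome 17 includes the 10.2% of its whole list. These were picked as extremes, and a difference between chromosomes was not tested.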
